A study of Mus musculus with 32 samples.

Results

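Among 28 libraries made from 1 mouse brain cell each, 4 carried the RNAs of motile cilia at high level. They were cells S5, S9, S10 and S15, chosen from cells S1 to S17 as those in which the ciliary gene 1700009P17Rik reached at least 100 FPKM (fragments per kilobase of transcript, scaled to the mapped fragments of each library). They are 4 of the 17 cells compared and of 32 libraries in all. All cells came from the subventricular zone of the forebrain, a lining region of the lateral ventricle, at postnatal day 21. The series also holds 4 libraries made from pools of 10 cells. Molecules were taken as total RNA, and the labels name no animal, strain, genotype, sort or treatment, so no group differs from another by design. Because the cells were picked by a value measured in them and no animal is named, what follows is a description, with no p-value, and the 4 cells are not replicates of a condition.

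Ependymal cells line the brain ventricles and carry tufts of motile cilia that beat to move cerebrospinal fluid. The epithelium of the choroid plexus is a modified ependyma that secretes that fluid, and its cells also bear cilia and many microvilli. A motile cilium is built on an axoneme of doublet microtubules around a central pair. Dynein arms slide the doublets, radial spokes and the nexin-dynein regulatory complex regulate the sliding, and microtubule inner proteins stabilise the doublet wall. Foxj1 and the Rfx factors are the transcription factors best known for switching on this gene programme.

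The gene that chose the cells encodes a microtubule inner protein (listed as Cfap126 in RefSeq, chromosome 1, 171113918 to 171126967, GRCm38). It had 401 FPKM in S5, 1033 in S9, 726 in S10 and 1698 in S15. The highest of the other 13 cells was S6 at 1.82 FPKM, so S5 was the cell just inside the threshold and S6 the cell just outside, with nothing between. Of the remaining cells S11 had 1.11 FPKM and the rest were under 1, and the gene was listed at 0 in each of S18 to S28. An exact 0 in this table can be a failed estimate, so such genes are described as listed at 0. In the rest of the text, 4 values in a row are FPKM in the order S5, S9, S10 and S15.

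The values of 3 further markers of the part are given next. They were chosen with earlier results of these data known, so they are no independent check of the label. Rsph1, a radial spoke head protein (chromosome 17, 31255019 to 31277356), had 172 FPKM in S5, 677 in S9, 764 in S10 and 574 in S15, with 1.87 as the highest of the other 13 cells (S12). Tekt1, a tektin that forms filaments in the doublet wall (chromosome 11, 72344722 to 72362442), had 61.1, 942, 7.07 and 487 FPKM, with 0.471 as the highest other value (S11). Both genes thus put the same 4 cells above the remaining 13. Foxj1, the cilia transcription factor (chromosome 11, 116330704 to 116335399), had 25.1 FPKM in S9, 6.99 in S10 and 78.1 in S15 but 0.741 in S5, under the 3.28 of S4. S5 therefore lacked Foxj1 at 1 FPKM, the level at which a gene is called found here, and S4, outside the 4, had it.

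A wider set of markers separated S5 from the other 3. The 10 ependymal markers include Foxj1, Rsph1 and Tekt1. Of these 10, S5 had 5, S9 and S10 each had 9 and S15 had 10, against 0 to 3 in the other 13 cells, whose highest was S11. Of 12 markers of choroid plexus epithelium S5 had 11, S9 had 1, S10 had 3 and S15 had 2, against 0 to 4 in the other cells, whose highest was S6. The choroid marker missing from S5 was Ttr, the thyroid hormone carrier that is the best known product of that tissue. The working description of S5 as rich in Ttr is therefore not borne out by the table: Ttr was listed at 0 in S5, and had 0.129 FPKM in S9, 1.15 in S10 and 104 in S15. Among the other 13 cells it ranged from 0 to 917 FPKM (S14) with a median of 3.57. A listed 0 can be a failed estimate. S5 is described below by its rule and its leading genes.

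The 4 libraries differed in breadth. S5 had 10169 genes found, S9 had 6962, S10 had 6815 and S15 had 5236, against 3062 to 9079 (median 5658) in the other 13. Approximate depths, read from the smallest steps of FPKM, were 17.8 M fragments in S5, 15.5 in S9, 18.6 in S10 and 12.9 in S15, against 6.17 to 20.4 in the others. S15 stood apart in composition, since the small RNA gene Gm23134 took 27.6% of its FPKM, against 0% to 0.271% in S5, S9 and S10, and protein-coding genes took 44.7%, against 60.4% to 73.6%. The part that breadth and composition play in the differences below was not tested. No pair of the 17 libraries held identical values. No doublet caller was run, and a library holding RNA of more than 1 cell was not looked for in any other way.

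Promoter sequences of genes described in this text were read from RefSeq (GRCm38.p6) and searched for regulatory letters. The window searched ran from 250 bases before to 50 bases after each start site. Motifs were sought on both strands: the X-box, the inverted repeat bound by Rfx factors, with its arm GTTGCC, and the forkhead letters TGTTTAC and TGTTTGC. The arm can lie inside an X-box, so these counts overlap. Of 71 protein-coding genes that were higher in all 4 cells than in any of the other 13 (described below), 60 had a promoter, and 8 of these (13.3%) held an X-box. Over all 27025 genes with a promoter the share was 3.07%. The 5 promoters below are shown because each holds an X-box and belongs to a gene described further on. Each line gives 180 bases before and 20 after the start site, 5′ to 3′ on the gene's strand, with the X-box in capitals.
1110017D15Rik, chr4:41507745-41507944, minus strand: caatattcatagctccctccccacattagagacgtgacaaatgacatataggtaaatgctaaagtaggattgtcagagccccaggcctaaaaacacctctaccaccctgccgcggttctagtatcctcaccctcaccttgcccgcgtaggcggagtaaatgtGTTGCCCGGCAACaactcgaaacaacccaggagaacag
Ppil6, chr10:41490259-41490458, plus strand: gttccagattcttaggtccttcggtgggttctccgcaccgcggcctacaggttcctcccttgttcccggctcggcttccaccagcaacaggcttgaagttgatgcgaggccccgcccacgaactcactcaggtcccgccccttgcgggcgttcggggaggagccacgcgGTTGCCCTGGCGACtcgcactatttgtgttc
Iqcg, chr16:33056167-33056366, minus strand: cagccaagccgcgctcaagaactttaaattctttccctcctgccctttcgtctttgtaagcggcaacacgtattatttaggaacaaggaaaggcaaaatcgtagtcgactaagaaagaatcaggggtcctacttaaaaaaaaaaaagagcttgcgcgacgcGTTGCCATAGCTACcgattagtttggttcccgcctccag
Lrrc23, chr6:124779708-124779907, minus strand: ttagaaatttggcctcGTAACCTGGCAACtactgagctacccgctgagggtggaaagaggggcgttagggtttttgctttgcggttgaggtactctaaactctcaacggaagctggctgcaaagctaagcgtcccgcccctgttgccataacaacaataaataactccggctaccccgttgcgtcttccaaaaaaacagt
Dynlrb2, chr8:116504835-116505034, plus strand: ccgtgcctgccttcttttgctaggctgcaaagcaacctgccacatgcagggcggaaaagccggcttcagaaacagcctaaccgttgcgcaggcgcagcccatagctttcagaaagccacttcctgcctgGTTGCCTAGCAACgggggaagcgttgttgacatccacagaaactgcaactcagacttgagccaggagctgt

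In Lrrc23 the site lies furthest from the start among the 5. The same search found an X-box in 24 of 122 genes (19.7%) of the motile cilia lists described below, in 3 of 24 (12.5%) intraflagellar transport genes, in 2 of 24 (8.33%) choroid plexus genes and in 0 of 8 endothelial genes. The arm GTTGCC was in 35% of the 60 genes, in 45.1% of the motile cilia genes, in 45.8% of the intraflagellar transport genes, in 16.7% of the choroid genes, in 12.5% of the endothelial genes and in 14.1% of all genes. The forkhead letters were each in 2 of the 60 genes: TGTTTAC in 3.33% against 4.05% of all, and TGTTTGC in 3.33% against 5.76%. In the motile cilia genes each of these was in 10 of 122 (8.2%), above its share over all genes. A match is a description of letters and not of binding, and the absence of a match says only that these letters are not in this window.

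Across all 17926 gene symbols found in at least 1 of the 17 cells, 79 (0.441%) were higher in each of S5, S9, S10 and S15 than in every other cell. Of these 79, 71 were protein-coding (0.552% of 12866), 3 were pseudogenes, 3 were other noncoding genes and 2 were copies of Pitpnm1 and Arvcf on alternate scaffolds. The rule that chose the cells used this contrast, so the count is a description. The 8 lists of motile cilia genes, with 141 genes together, held 24 of the 79, and all 36 lists together held 27. The rule gene is itself among the 79 and the 24, which follows from the choice of cells. Of the 79, 67 reached 1 FPKM in all 4 cells, and in the other 13 cells 57.6% of their values were listed at 0, against 44.5% over all symbols tested. The reverse pattern was found for 2 symbols (0.0112%). Sepp1, the plasma selenium carrier selenoprotein P, had 13.2, 1.18, 0.676 and 0.776 FPKM against 33.8 to 1355 in the other cells, and the noncoding Gm5111 was at most 0.457 FPKM against at least 0.49. The count of 79 rests on each of the cells, since it was 176 without S5, 115 without S9, 130 without S10 and 216 without S15, as fewer cells must then pass.

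**Figure D1:**
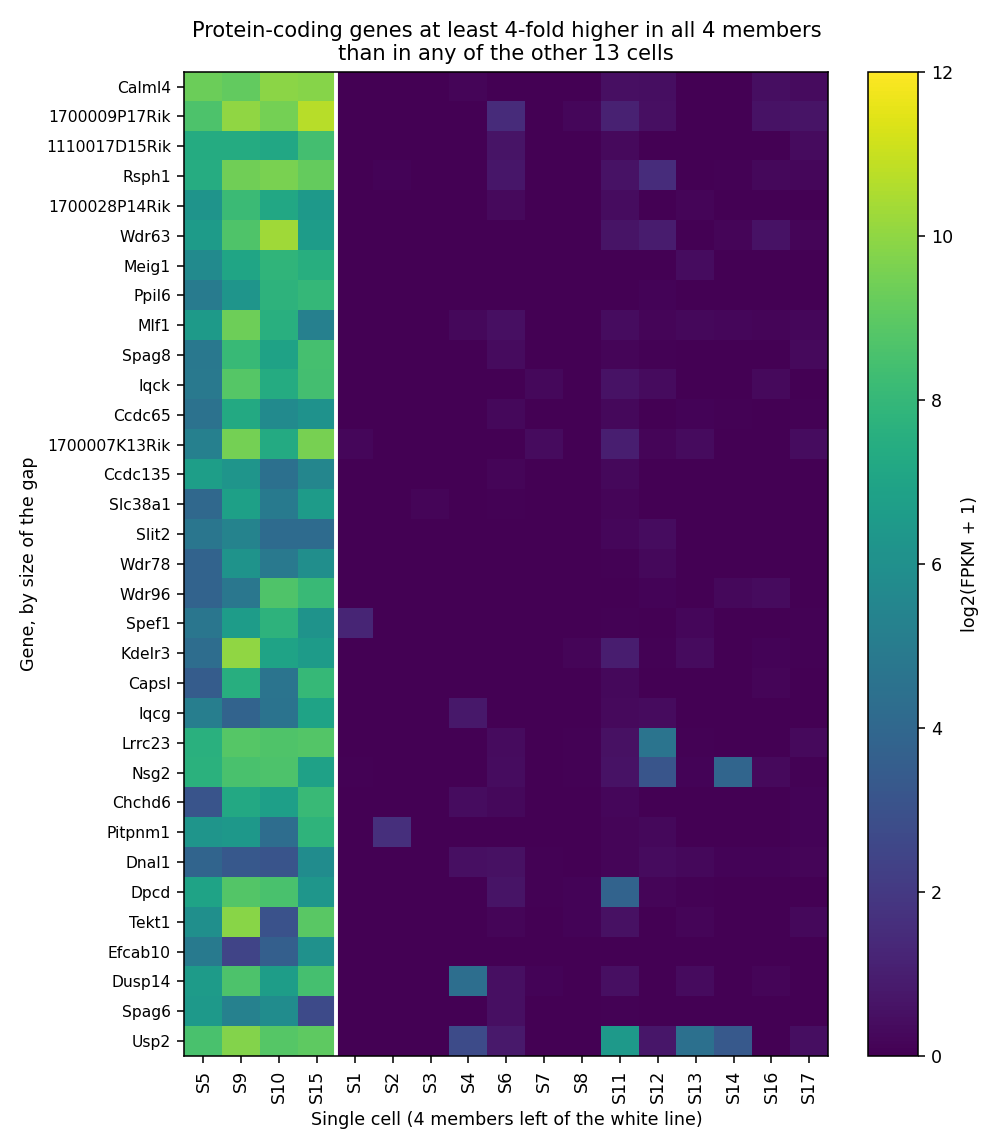
Level of the 33 protein-coding genes that were at least 4-fold higher, in FPKM + 1, in each of the 4 cells than in any of the other 13. Columns are cells and rows are genes ordered by the gap between the lowest of the 4 and the highest of the 13; colour is log2(FPKM + 1). The columns of S5, S9, S10 and S15 are filled throughout, down to 4.45 FPKM for Efcab10 in S9 and 5.46 FPKM for Spag6 in S15, and most of the other columns are near 0.

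The gene with the widest gap was Calml4, a calmodulin-like light chain of the brush border (chromosome 9, 62858104 to 62875918). It had 641 FPKM in S5, 561 in S9, 970 in S10 and 907 in S15 (SD 0.38 on the log2(FPKM + 1) scale, n = 4 cells) and at most 0.408 in the other 13 (S11). On that scale its lowest value was 8.64 above the highest of the others. The gene 1110017D15Rik followed the rule gene with 166, 167, 145 and 342 FPKM against at most 0.568 (S6). Ppil6, a protein of the cyclophilin family, had 31.3, 75.2, 214 and 256 FPKM against at most 0.0719 (S12), and Iqck, an IQ motif protein, 27.4, 458, 164 and 340 FPKM against at most 0.487 (S11). These genes were thus found in all 4 cells and in none of the rest. The clone-named genes 1700028P14Rik and 1700007K13Rik also lay in the top 20, with lowest values of 72.0 and 36.1 FPKM.

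Several genes of this group have roles outside the axoneme. Slc38a1, a transporter of neutral amino acids, had 15.7, 111, 28.4 and 93.8 FPKM against at most 0.125 (S3). Slit2, a secreted guidance cue for migrating neuroblasts and axons, had 25.3, 40.9, 17.1 and 17.2 FPKM against at most 0.335 (S12). Both were thus found in all 4 cells and in none of the rest. Kdelr3, a receptor that returns proteins to the endoplasmic reticulum, had 18.3, 1014, 124 and 94.2 FPKM against at most 0.929 (S11). Bmp6, a bone morphogenetic protein, had 54.9, 4.6, 2.63 and 116 FPKM against at most 0.0727 (S6). For Kdelr3, Bmp6, Wdr78, Iqcg, Iqck, Spef1, Dpcd and others, exons overlap those of a neighbouring gene: this holds for 25 of the 71 protein-coding genes and for 9 of the 33 with a gap of at least 4-fold. Whether reads were assigned by strand is not given in the sources used here, so their values are uncertain in part.

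**Figure D2:**
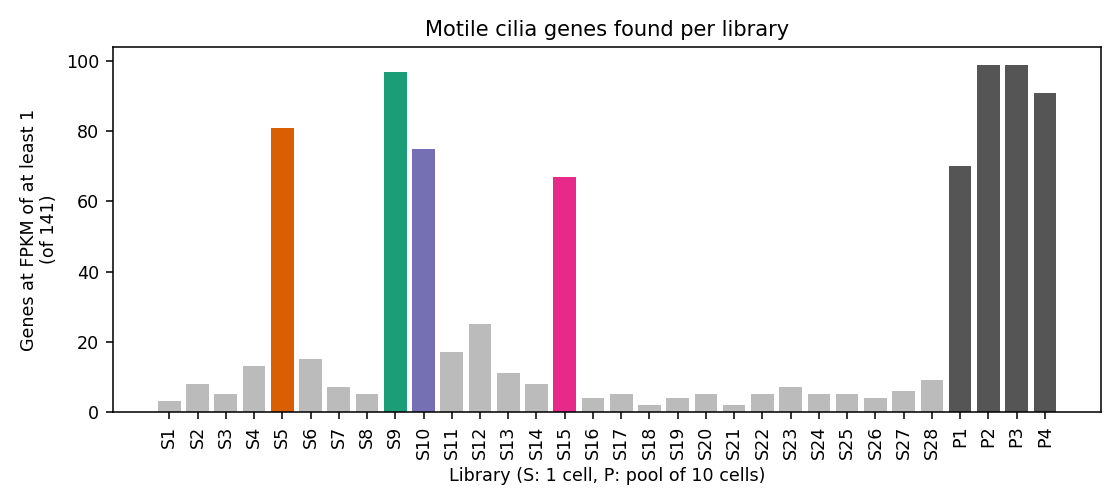
Number of 141 motile cilia genes, the rule gene among them, at FPKM of at least 1 in each of the 32 libraries. Bars for S5 (81), S9 (97), S10 (75) and S15 (67) stand far above those of the other 13 cells of S1 to S17 (3 to 25) and of S18 to S28 (2 to 9), and the pools P1 to P4 reach 70 to 99.

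The axoneme genes were next taken by role, in 8 lists that together hold 141 genes. These include the rule gene, which is found in all 4 cells by their choice. S5 had 81 of the 141 genes, S9 had 97, S10 had 75 and S15 had 67, against 3 to 25 (median 8) in the other 13 cells. In all 4 cells 29 were found, in 3 cells 40, in 2 cells 34 and in a lone cell 16, while 22 were under 1 FPKM in each, 13 of them listed at 0. No member therefore carried the whole set, and no 2 carried the same part. The median gene was 2.58 higher on the log2(FPKM + 1) scale in the mean of the 4 cells than in the mean of the 13, where the median over all symbols tested was 0.05. A difference of at least 1 was reached by 24.7% of symbols tested upward and by 11.4% downward.

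Microtubule inner proteins and tektins were 24 genes, with the rule gene among them. In S5 12 were found, in S9 16, in S10 10 and in S15 8, against 0 to 4 in the others. The mean level of the list was 2.73 in S5, 4.79 in S9, 2.76 in S10 and 2.59 in S15 (log2(FPKM + 1)), and at most 0.84 elsewhere (S12). Spag8, a protein of the doublet wall, had 26.7, 266, 121 and 353 FPKM against at most 0.282, and Meig1 52.2, 132, 233 and 184 against at most 0.322. S9 alone carried some tektins: Tekt3 had 281 FPKM and Tekt4 had 234 in S9, and Morn5 had 380, while each was at most 0.16 in S5, S10 and S15. S9 was in this way the cell with the broadest set of doublet wall genes.

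Radial spokes, 14 genes, had 9, 11, 9 and 10 found and means of 3.22, 4.28, 4.39 and 4.65, against at most 7 found and a mean of at most 1.60 in the others. Besides Rsph1, Rsph9 had 511, 262, 70.8 and 278 FPKM, but S11 reached 365. Dnajb13, a spoke chaperone, had 199 FPKM in S9, 586 in S10 and 280 in S15 and was listed at 0 in S5, while S12 had 8.24. The clone-named 4930529M08Rik had 13.1, 1.89, 104 and 523. The near-identical copies Rsph3a and Rsph3b had 28.5, 42.1, 0 and 67.1 and 35.8, 62.3, 0 and 86.1 FPKM, and how reads were split between them is not known. Of the 14 genes 4 were found in all 4 cells, and both Rsph3 copies were listed at 0 in S10.

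Outer dynein arms and their docking complexes, 14 genes, had 11 found in S5 and 7 in each of S9, S10 and S15, against at most 3 in the others. Dynlrb2, a roadblock light chain of cytoplasmic dynein whose promoter is printed above, had 3.45 FPKM in S5, 1182 in S9, 175 in S10 and 825 in S15, with 1.2 as the highest other value (S11). Dnal1, a light chain of the outer arm, had 13.8, 8.97, 7.6 and 56.3 FPKM against at most 0.44 (S6). Dnah9, a heavy chain of the outer arm, had 23.4, 1.44, 8.22 and 0.171 FPKM against at most 0.055 (S6), so that it was under 1 FPKM in S15. Ccdc114, of the docking complex, had 28.1, 41.3, 66.0 and 1.16 against at most 3.52 (S6), and Dnal4 12.8, 115, 0 and 299 against at most 193 (S3). Intermediate chains were patchier: Dnaic1 had 11.6 FPKM in S5 and 132 in S15 and was listed at 0 in S9 and S10, and Dnaic2 had 32.6 in S5 and 86.2 in S9 and was under 1 in S10 and S15.

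Inner dynein arms and the rulers that space them, 15 genes, had 5, 11, 8 and 7 found and means of 1.36, 3.94, 2.56 and 2.23, against at most 2 found and a mean of at most 0.57 in the others. Wdr63, an intermediate chain, had 94.4 FPKM in S5, 409 in S9, 1245 in S10 and 96.7 in S15, against at most 0.897 (S12). Wdr78, a related intermediate chain, had 13.1, 71.1, 28.2 and 59.6 against at most 0.212. Ccdc40, which sets the repeat length of the axoneme with Ccdc39, had 322 FPKM in S9, 168 in S10 and 461 in S15 and was listed at 0 in S5. Its partner Ccdc39 had 9.13, 1.56, 2.01 and 12.5 FPKM, so S5 listed a single member of that pair. Dnali1, a light chain, had 211 FPKM in S9 and 16.3 in S15 and was under 1 in S5 and S10. Dnah6, a heavy chain, was higher in each of the 4 than in the other 13 but only at 0.0213 to 2.17 FPKM, and was listed at 0 in all 13.

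Factors that assemble dynein arms in the cytoplasm, 11 genes, had 5, 6, 5 and 3 found against at most 4, and none stood above all other cells. Zmynd10 had 18.2, 312, 74.1 and 0.0503 FPKM against at most 0.408 (S11), and Pih1d2 13.1, 61.4, 158 and 0.317 against at most 1.03 (S6). Both were thus absent at 1 FPKM from S15. Ruvbl1 and Ruvbl2, general chaperone ATPases, had 0.152, 139, 59.7 and 144 and 19.3, 0.102, 0.119 and 190 FPKM and were also high elsewhere, up to 202 in S3 and 245 in S2.

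The nexin-dynein regulatory complex, 9 genes, had 5, 6, 5 and 6 found against at most 1. Ccdc65 (Drc2) had 22, 156, 52.0 and 68.9 FPKM against at most 0.208 (S11), and Ccdc135 (Drc7) 105, 74.5, 20.3 and 43.9 against at most 0.187. Iqcg (Drc9), with its promoter above, had 33.9, 13, 23.1 and 123 against at most 0.7 (S4). These 3 genes stood above all other cells in each of the 4. Lrrc48 (Drc3) had 45.8, 307, 0.375 and 288 FPKM, and Drc1 had 133 in S9, 180 in S10 and 6.97 in S15 and was listed at 0 in S5.

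Central pair genes, 13 in all, had 9, 10, 8 and 6 found, against at most 1 in the others, whose list mean did not pass 0.11. Spef1, a microtubule-binding protein of the central pair, had 25.3, 97.5, 217 and 71.4 FPKM against at most 1.38 (S1). Spag6, a central pair scaffold, had 89.4, 37.8, 56.5 and 5.46 against at most 0.397 (S6). A330021E22Rik had 21.5, 44.2, 276 and 0 against at most 0.336, and Spa17, a protein of sperm and motile cilia, 26.1, 15.7, 0 and 327 with 0 in all 13 others. Hydin, a large central pair protein, had 4.36 FPKM in S5 and 25 in S9 and was listed at 0 in S10 and S15. Spag17 had 97.9 in S9 and 38.1 in S10 and was listed at 0 in S5 and S15, so the central pair set was patchy within the 4.

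Other motile cilia genes, 41 in all, had 25, 30, 23 and 20 found, against 1 to 9 in the others. Lrrc23, a radial spoke protein, had 198, 449, 411 and 447 FPKM against at most 23.2 (S12), Dpcd 123, 446, 377 and 78.3 against at most 13.3 (S11), and Mlf1 90.9, 646, 188 and 36.5 against at most 0.425 (S6). These 3 were high in all 4 cells. Wdr96, the axonemal protein also named Cfap43, had 13.2, 25.9, 410 and 284 FPKM against at most 0.278 (S16), and Capsl, a calcyphosine-like protein, 10.2, 180, 23.6 and 258 against at most 0.189. Ccdc113 had 81.3, 63.1, 3.24 and 7.44, and Kif27, a kinesin, 3.24, 6.63, 3.01 and 53.7, with at most 0.071 and 0.0165 elsewhere. Tppp3, a tubulin polymerisation protein, had 3167 FPKM in S9, 2049 in S10, 172 in S15 and 0.683 in S5, and reached 894 in S13. Genes often used to mark ependyma divided the cells: Fam183b had 2109 in S9, 57.3 in S10 and 649 in S15 and was listed at 0 in S5, Tmem212 had 816 in S9 and 774 in S15 and at most 0.104 in S5 and S10, and Ccdc153 had 114 in S9, 1.75 in S10 and 1363 in S15 and 0.00165 in S5.

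Of 13 transcription regulators of the programme, 4 were found in S5, 2 in S9, 5 in S10 and 4 in S15, against 0 to 3 in the others, and none was found in all 4 cells. Rfx2 had 91.7 FPKM in S9 and 49.8 in S10 but 0.364 in S5 and 0.0253 in S15, with at most 0.102 elsewhere (S7). E2f4, which acts in centriole amplification, had 6.17, 0, 37.4 and 56.4 FPKM and reached 51.1 in S12, and E2f5 had 16.4, 0, 1.38 and 0. Ccno, a cyclin of multiciliated cells, had 19.8 FPKM in S10 and was listed at 0 in the other 3, and Gmnc, an early inducer of multiciliated fate, had 2.7 FPKM in S5 and was listed at 0 in the other 3. Mcidas, another inducer, did not pass 0.0292 FPKM in any of the 4. The regulators were thus less complete in the 4 cells than the structural genes given above.

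Genes shared by all cilia, motile or primary, were less distinct from the other cells. Of 29 intraflagellar transport genes, whose products carry cargo along the axoneme, 24 were found in S5, 16 in S9, 17 in S10 and 15 in S15, against 0 to 18 in the others, and none was above all other cells. Dync2li1 had 82.4, 86.2, 207 and 350 FPKM with up to 143 elsewhere (S11), Ift81 had 17.3, 86.3, 105 and 1039 with up to 170 (S11), and Ift122 had 20.6, 218, 3.63 and 93.5 with up to 5.59 (S12). Ift46 had 71.8, 75.1, 18.4 and 20.8 with up to 193 (S12). S5 thus had the most transport genes of the 4, and its list mean of 3.52 was the highest of the 17 cells. Of 10 BBSome genes, which sort membrane cargo, 8, 8, 4 and 4 were found, against at most 5. Ttc8 had 4.45, 77.1, 0.977 and 86.3 FPKM, Bbip1 6.69, 15.4, 23.3 and 10.3, Bbs5 35.0, 5.97, 0 and 93.2, and Arl6 53.2, 72.4, 0 and 0, each but Arl6 with higher values in S11 or S7.

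Basal body and centriole genes, 24 in all, had 13, 11, 10 and 8 found against 1 to 10. Cetn2, a centrin of the basal body, had 85.3, 147, 349 and 355 FPKM, with up to 222 in S17, Tctn2 of the transition zone 69.9, 20.5, 2.05 and 72.0 with up to 13.4 (S6), and Cby1 10.3, 95.8, 51.1 and 0 with up to 52.7 (S12). B9d2, of the transition zone, had 53.5 and 278 FPKM in S5 and S9 and was listed at 0 in S10 and S15. The factors of centriole amplification proper were mostly under 1 FPKM: Ccdc78 had 0.856, 1.05, 0.89 and 0.562. Among tubulins, Tubb4b, a β-tubulin of axonemes, was high in all 4 at 1125, 2813, 3085 and 2958 FPKM, with a highest other value of 710.5 in S6 (chromosome 2, 25222160 to 25224702). Its processed pseudogene Tubb4b-ps1 had 289, 886, 840 and 776 FPKM and was likewise above all other cells, and how reads were split between the copies is not known. Tuba1b had 962, 1991, 1961 and 1108 FPKM with up to 1192 elsewhere (S14), Tuba1c 250, 1324, 1000 and 389 with up to 485, and Tuba1a 315, 0, 3819 and 1234 with up to 1992 (S12). Planar cell polarity genes, 15 in all, did not mark the 4: 6, 5, 5 and 2 were found against 1 to 7, and the median difference was -0.04. The highest, Celsr2, had 3.74, 4.04, 0 and 14.7 FPKM, and Ankrd6 had 1.54, 10.3, 1.17 and 0.717. Prickle2 had 6.79 in S9 and 11.4 in S15, and Fzd3, a Frizzled receptor, had 60.5 in S10 and was listed at 0 in the other 3.

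**Figure D3:**
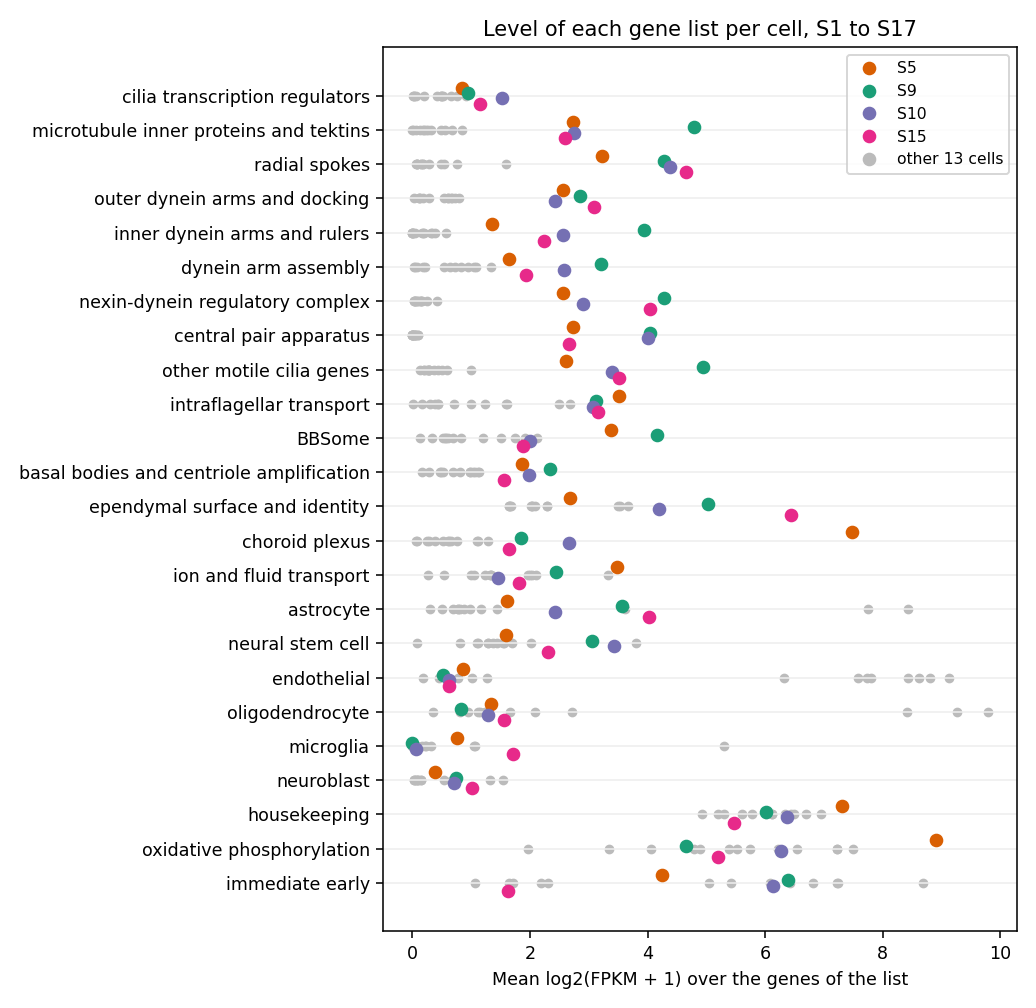
Mean log2(FPKM + 1) over the genes of 24 lists in each cell of S1 to S17. Coloured points are S5, S9, S10 and S15, grey points the other 13 cells. The 8 motile cilia lists put all 4 coloured points right of the grey ones, and the choroid plexus list puts S5 alone at 7.47. The endothelial list leaves all 4 at 0.53 to 0.87, while the other cells span 0.19 to 9.13.

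Genes of the ependymal surface and identity, 28 in all, had 16, 19, 18 and 20 found, and means of 2.69, 5.03, 4.20 and 6.43, against 1.65 to 3.67 in the others. S9, S10 and S15 were thus the 3 highest of the 17 cells, and S5 was the seventh. Dbi, an acyl-CoA-binding protein, had 2099, 26104, 7666 and 22455 FPKM with up to 4559 elsewhere (S12). Mt3, a metallothionein, had 438, 2494, 154 and 1837 with up to 1472 (S11). Cd24a, a surface protein used to sort ependymal cells, had 22.1, 394, 512 and 1549 FPKM with up to 470 (S2). Vim, an intermediate filament of ependyma and radial glia (chromosome 2, 13573927 to 13582826), had 0.34 FPKM in S5, 1658 in S9, 6043 in S10 and 7195 in S15, and up to 2631 elsewhere (S2). S100a6 was also graded, at 22.5, 75.6, 225 and 1108 with up to 52.0 (S4).

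Some of the 3 cells also carried genes used for neural stem cells and astrocytes. Of 18 stem cell genes 9, 9, 11 and 6 were found, against 0 to 12. Gfap had 543 FPKM in S9, 59.4 in S10 and 159 in S15, against 0.0229 in S5 and up to 30.0 elsewhere (S12). Sox9 had 12.5, 110, 157 and 153 with up to 94.2 (S11), Id3 had 37.9, 281, 130 and 75.8 with up to 676 (S2), and Pax6 had 1.9, 211, 117 and 0.931 with up to 3.33 (S6). Gfap and Sox9 were thus higher in S9, S10 and S15 than in S5, while Pax6 was high in S9 and S10. Prom1, an apical membrane protein, had 86.4 in S9 and 70.6 in S10, 0.0319 in S5 and 0.21 in S15, and reached 534 in S7. Of 14 astrocyte genes 5, 9, 7 and 9 were found against 1 to 14, with a highest mean of 8.42 in S11 against 1.61, 3.57, 2.43 and 4.03 here. Mlc1 had 13.7, 169, 267 and 910 FPKM, Aldoc 0.223, 1004, 22 and 524, Atp1b2 17.8, 75.8, 63.4 and 113 and S100b 8.23, 136, 2.99 and 76.3. The astrocyte genes Gjb6 and Ntsr2, at up to 1891 and 1156 FPKM in S14, were under 1 in all 4.

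**Figure D4:**
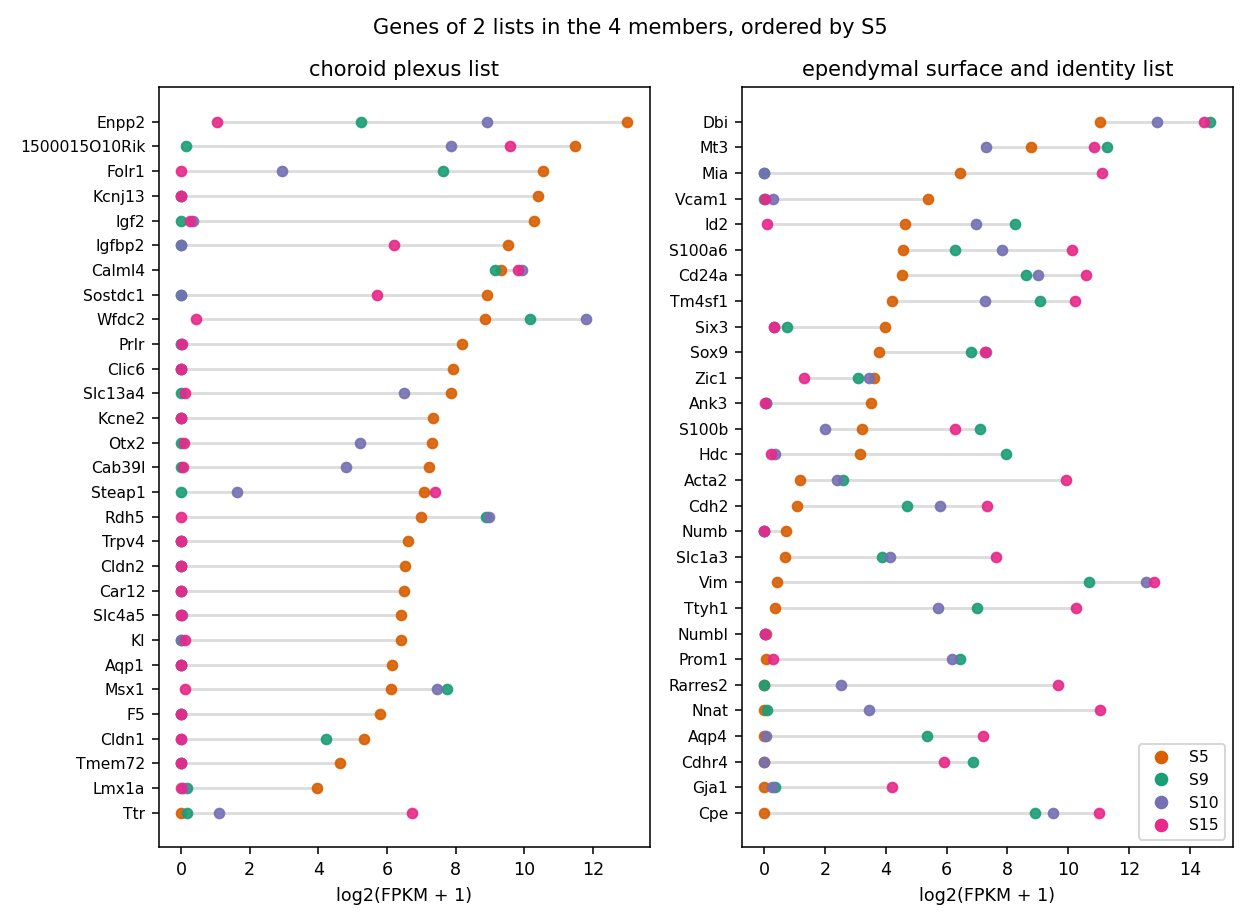
Level of each gene of the choroid plexus list (left) and of the ependymal surface and identity list (right) in S5, S9, S10 and S15, as log2(FPKM + 1), ordered by S5. On the left S5 is at or near the right end for most genes except Ttr at the bottom, which is listed at 0 in S5; on the right Vim and Cpe lie near 0 in S5 and above 8 in the other 3.

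S5 differed from S9, S10 and S15 in the number of genes for which it was furthest above. It was at least 4-fold above the highest of the other 3, in FPKM + 1, for 2359 of 13398 symbols found in at least 1 of the 4 (17.6%), and at least 4-fold below the lowest for 224 (1.67%). Taken in turn in the same way, S9 was above for 8.11% and below for 2.34%, S10 for 7.93% and 2.96%, and S15 for 6.97% and 8.7%. S5 thus stood at least 4-fold above the other 3 for the most symbols, beside its higher number of genes found, and S15 stood at least 4-fold below for the most. The lower count of S5 depends on each of the other cells: it was 410 without S9, 493 without S10 and 746 without S15, as fewer cells must then pass.

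Genes of the choroid plexus made up the largest difference among the lists, with a median of 6.15 (log2) between S5 and the mean of the other 3. Of 29 genes 28 were found in S5, against 7 in S9, 12 in S10 and 7 in S15. The other 13 cells had 0 to 11 found (median 3), with S6 the highest. In S5, 20 of the 29 were at least 4-fold above S9, S10 and S15, where the share over all symbols was 17.6%. The list mean was 7.47 in S5, 1.85 in S9, 2.67 in S10 and 1.64 in S15, and at most 1.28 in the other 13 (S6). Over the list the median difference between the 4 cells and the 13 was 1.93, and it was -0.02 without S5, so it rests on S5. Calml4 was the sole gene of the list to stand above all other cells, and it did so in each of the 4.

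The transport genes of this list were near-private to S5 among the 4. Kcnj13, the inward rectifier potassium channel of the choroid apical membrane (chromosome 1, 87386363 to 87394729), had 1341 FPKM in S5 and was listed at 0 in S9, S10 and S15, with 445 in S17. Clic6, a chloride channel protein, had 240 FPKM in S5, Kcne2, a potassium channel subunit, 160, Aqp1, the apical water channel, 69.9, Car12, a membrane carbonic anhydrase, 89.7, and Trpv4, a cation channel, 95.9, and each was listed at 0 in S9, S10 and S15. Slc4a5, a sodium bicarbonate cotransporter, had 83.5 FPKM in S5 and at most 0.011 in the other 3. These genes form a set of channels and transporters that the secreting epithelium uses. Folr1, the folate receptor that carries folate into cerebrospinal fluid, was less exclusive, at 1482 FPKM in S5, 195 in S9, 6.6 in S10 and 0 in S15, and Slc13a4, a sulfate transporter, had 231, 0, 89.0 and 0.0853.

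Secreted and signalling genes of the list followed. Enpp2, the secreted enzyme autotaxin (chromosome 15, 54838898 to 54920146), had 8188 FPKM in S5, 37.1 in S9, 481 in S10 and 1.05 in S15, and up to 1549 elsewhere (S13). Igf2, a growth factor secreted into the fluid, had 1246 FPKM in S5 and at most 0.282 in the other 3, though its exons overlap those of neighbouring genes. Prlr, the prolactin receptor, had 292 in S5 and at most 0.00803, and Kl, the ageing regulator Klotho, 83.3 and at most 0.0785. These were thus found in S5 and in none of S9, S10 and S15. Sostdc1, an antagonist of BMP and Wnt signals, had 478 in S5 and 51.1 in S15, and Igfbp2, an IGF-binding protein, 741 and 72.1, both listed at 0 in S9 and S10. The transcription factors Otx2 and Lmx1a, which specify the tissue, had 158, 0, 36.2 and 0.0517 and 14.6, 0.134, 0.0355 and 0.00152 FPKM. Claudins of its tight junctions followed the pattern with Cldn2 at 91.8 in S5 and 0 in the other 3, and Cldn1 at 39.0, 17.8, 0 and 0.

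Some genes listed for choroid were shared. Wfdc2, a secreted protease inhibitor domain protein, had 466, 1141, 3523 and 0.346 FPKM with at most 3.5 in the other 13 (S12), so it was in S5, S9 and S10. Rdh5, a retinol dehydrogenase, had 125, 475 and 503 FPKM in S5, S9 and S10 and was under 1 in S15, and Msx1, a homeobox factor, had 67.7, 215, 174 and 0.09, but other cells reached 812 (S14) and 141 (S11). 1500015O10Rik, which encodes the secreted augurin, had 2823, 0.0938, 231 and 771, and Steap1, a metalloreductase, 133, 0, 2.07 and 168. S10 therefore had more of this list (12 genes found) than S9 and S15 (7 each), but S6, outside the 4, had 11.

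Broader transport genes were less particular to S5. Of 24 ion and fluid transport genes 15, 11, 6 and 8 were found, against 1 to 15 in the others. The list mean was 3.49 in S5 and 3.34 in S12, outside the 4, which also had 15 found. In S5, 7 of the 24 were at least 4-fold higher than in S9, S10 and S15, where the share over all symbols was 17.6%. Atp1b1, a beta subunit of the sodium pump, had 241, 16.5, 136 and 187 FPKM with up to 79.1 elsewhere (S12). Slc4a2, an anion exchanger, had 354, 169, 78.0 and 0.146. Atp1b1 was thus found in all 4, and 3 further genes were higher in S5 than in S9, S10 and S15: Car14 had 291 FPKM in S5 and at most 0.141 in those 3, Slc4a10 had 29.4 and at most 2.0, and Slc12a2, a sodium, potassium and chloride cotransporter, 44.4 and at most 0.0757. Among the other 13 cells Car14 reached 419 FPKM (S12) and Slc12a2 reached 62.1 (S4), both above S5, and Slc4a10 reached 0.0313 (S6). Aqp4, the water channel of ependyma and astrocytes, had 40.3 FPKM in S9 and 147 in S15, 0.0327 in S10 and 0 in S5. Among 20 secreted and carrier genes, Cst3, a protease inhibitor, had 702, 2929, 2486 and 532 FPKM, Apoe 1458, 1538, 2.39 and 4212, Sparc 439, 3.13, 651 and 857, and Clu, the chaperone clusterin, 1856, 0.644, 4.14 and 10782. Rbp4, the serum carrier of retinol, was in S9 at 356 and S10 at 74.4 and listed at 0 in S5 and S15.

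Outside the lists, the protein-coding genes furthest above in S5 included Fxyd1, a modulator of the sodium pump, at 680 FPKM and 0 in S9, S10 and S15, and Slc7a10, a transporter of small neutral amino acids, at 750 and at most 0.849, though S14 reached 1224. Etfb and Mpc1, which serve mitochondrial electron transfer and pyruvate entry, had 441 and 392 FPKM against at most 0.259 and 0.266, and Ndufb10 of respiratory complex I had 720 against at most 1.85. Defb11, a beta-defensin, had 443 FPKM against at most 0.461 in the 3 and was listed at 0 in the other 13 cells. Fam132a had 299, Tmem256 had 281, Pcolce, an enhancer of collagen processing, had 249, Nptn, the adhesion protein neuroplastin, had 234, Wdr86 had 226 and Leprel4 had 211 FPKM, each listed at 0 in S9, S10 and S15. Cryab, a small heat shock protein, had 415 against at most 0.476. Exons of Kcnj13, Igf2, Prlr, Car14, Slc7a10, Etfb, Pcolce, Nptn and Cryab overlap another gene, so their values are uncertain in part. Several of these genes were also found among the other 13 cells: Mpc1 in 12 (up to 807 FPKM, S1), Ndufb10 in 10 (up to 1005, S11), Etfb in 9 (up to 428, S2), Tmem256 in 6 (up to 349, S11), Cryab in 5 (up to 1390, S13) and Leprel4 in 2 (up to 398, S4). All of these but Etfb thus reached a higher value there than in S5.

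Oxidative phosphorylation genes had a high list mean in S5, beside its higher number of genes found. All 20 oxidative phosphorylation genes of the list were found in S5, against 14 in S9, 18 in S10, 14 in S15 and 5 to 20 in the others. The mean was 8.91 in S5, 4.66, 6.27 and 5.20 in S9, S10 and S15, and at most 7.50 elsewhere (S12). Uqcrh of complex III had 1737, 456, 199 and 853 FPKM, Atp5a1 of the ATP synthase 1135, 243, 289 and 726, Atp5b 2465, 37.7, 1012 and 424, and Ndufa4 1703, 14.3, 309 and 970. In S5, 3 of the 20 were at least 4-fold above S9, S10 and S15, where the share over all symbols was 17.6%. S5 was the highest of the 17 cells for the mean of this list. It was also highest for the 16 housekeeping genes, at 7.30 against 6.01, 6.38, 5.46 and up to 6.95 elsewhere (S11), with Ppia at 5667, 879, 2562 and 111 FPKM and Actb at 364, 1598, 1125 and 568. Of 17 glycolysis genes 15, 11, 13 and 13 were found, against 6 to 14 in the others. The list mean was 6.87 in S5 and 7.18 in S11, outside the 4, and 2 of the 17 were at least 4-fold above in S5. Pkm had 803, 177, 372 and 453 and Pgk1 613, 444, 261 and 328 FPKM. Aldoa had 773, 464, 294 and 41.0 and Tpi1 324, 571, 583 and 16.

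The genes furthest below in S5 were led by Vim, given above. Cpe, a processing enzyme of peptide hormones, was listed at 0 in S5 and had 481 FPKM in S9, 717 in S10 and 2061 in S15, and Anxa2, a membrane-binding annexin, had 0.506 in S5 and 1728, 2640 and 657 in the others. Rnase4 was listed at 0 against 304, 324 and 776 FPKM, and Gpr37l1, a receptor of astroglia, at 0 against 875, 260 and 315. These genes were also found among the other 13 cells: Vim in 10 (up to 2631 FPKM, S2), Cpe in 9 (up to 716, S11), Anxa2 in 8 (up to 1929, S1), Rnase4 in 6 (up to 360, S16) and Gpr37l1 in 3 (up to 2466, S14). Sparcl1, a secreted matricellular protein of astrocytes, had 0.0385 in S5 and 132, 120 and 718 in the others, Lgals3, the lectin galectin 3, 2.0 against 412, 420 and 267, and Slc22a4, a carrier of ergothioneine, 0 against 107, 185 and 439. Adprh was listed at 0 against 362, 197 and 194 FPKM, Hhatl at 0 against 543, 101 and 326, and Cmtm3 at 0 against 207, 487 and 81.1. Plekhb1 had 0.105 against 175, 96.0 and 314, Fhl1 0.378 against 145, 113 and 296, Nup85 0.858 against 148, 205 and 158, and Sorl1 was listed at 0 against 79.3, 100 and 103. Sparcl1 was found in 11 of the other 13 cells (up to 2416 FPKM, S14) and Lgals3 in none. Exons of Anxa2, Rnase4 and Sorl1 overlap another gene, so their values are uncertain in part.

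Ciliary genes also stood in this low group of S5. Of the 141 motile cilia genes, 11 were at least 4-fold lower in S5 than in S9, S10 and S15 and 2 were at least 4-fold higher. The general shares were 1.67% and 17.6%. Dnajb13 and Ccdc40, given above, were listed at 0 in S5, and Wdr66, of a complex at the spoke base, had 0.225 FPKM in S5 against 102, 83.5 and 152. In all, 10 motile cilia genes were found in S9, S10 and S15 but not in S5, and 4 in S5 alone. The 2 that were higher in S5 were Kif6 at 38.9 FPKM and Ropn1l at 9.36, both listed at 0 in the other 3. S5 thus had 81 of the 141 genes, more than S10 or S15. Its list mean was the lowest of the 4 for radial spokes, inner arms, assembly factors, the nexin-dynein complex and the list of other genes. It was not the lowest for the inner proteins (2.73 against 2.59 in S15), the outer arms (2.56 against 2.43 in S10) or the central pair (2.74 against 2.66 in S15).

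S9, S10 and S15 each had genes that were under 1 FPKM in the other 3. They were taken by ranking each cell's excess over the other 3, so each cell has such genes by the choice. In S9 the protein-coding genes furthest above included Polr1c, an RNA polymerase subunit, at 727 FPKM, Pold2, a DNA polymerase subunit, at 397, Morn5 at 380, Wdr77 at 398, Tekt3 at 281, Sct, the hormone secretin, at 258, Tmem217 at 280 and 2 clone-named genes, each under 1 FPKM in the other 3. Morn5 was listed at 0 in the other 13 cells and Tekt3 did not pass 0.227 there, whereas Polr1c was found in 7 of them and Wdr77 in 7. The S9 leaders thus included both ciliary genes absent elsewhere and general genes found elsewhere.

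In S10 the leaders were Thrsp, a regulator of lipid synthesis, at 481 FPKM, Rras, a small GTPase, at 666, Timm22, of the mitochondrial inner membrane, at 352, Nsmce1 at 426, Ggt7 at 236, Nudt9 at 216, Catsperg1, a subunit of the sperm calcium channel, at 215, Gipc2 at 210, Htra2, a mitochondrial protease, at 211 and Saal1 at 322, each at most 0.593 in S5, S9 and S15. Catsperg1 and Gipc2 were found in none of the other 13 cells. The rest were each found in 1 to 7 of them.

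In S15 they were Ucma, a matrix protein of cartilage, at 1105 FPKM, Nhlrc4 at 1151, Mgp, matrix Gla protein, at 789, Lin37, of a cell cycle repressor complex, at 850, Art3, a membrane ADP-ribosyltransferase, at 576, Erich2 at 839, Sncg, gamma-synuclein, at 510, Cks2, a cyclin kinase subunit, at 461, Got1l1 at 457 and the predicted gene Gm10037, each under 1 FPKM in S5, S9 and S10. Nhlrc4, Art3, Sncg, Cks2 and Got1l1 were found in none of the other 13 cells. Mgp reached 1858 FPKM among them. Over 12866 protein-coding genes the correlation of log2(FPKM + 1) between pairs of the 4 cells was 0.346 to 0.495 (Pearson's r, median 0.403), and S9 with S10 was the closest pair. Between the 4 and the other 13 the median was 0.311 and the highest 0.474, which was S5 with S12. S5 was thus closer to S12 than to S10 (0.446), S9 (0.436) or S15 (0.346). Among the 13 the median was 0.352 and the highest 0.607. The points are genes of the same library pair and share its depth, so these values are given as a description.

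Markers of other cell types were read in the same 4 cells. Of 12 endothelial genes 3, 2, 1 and 4 were found, and all 12 were lower by at least 1 (log2) in the mean of the 4 than in the mean of the other 13, many of which reached high levels. Ly6c1 had 0.348, 3.66, 0.734 and 2.06 FPKM against a median of 1766 in the others, and Cldn5 0.556, 0.974, 0.922 and 1.09 against 1238. Kdr had 5.46 in S5 and 12.5 in S10, and Slco1a4 had 18.7 in S5. The 4 cells thus held little endothelial RNA, with list means of 0.53 to 0.87. This was not particular to them: S4, S11, S12, S13 and S14 had 0.19 (S14) to 1.28 (S13). The difference rests on S1, S2, S3, S6, S7, S8, S16 and S17, at 6.32 (S1) to 9.13 (S2). Of 11 oligodendrocyte genes 4, 4, 3 and 4 were found, with list means of 0.83 to 1.57 against up to 9.79 (S4). Cnp was in S15 at 58.0 FPKM, and Mal was in S10 at 231, while Mog, Mag, Opalin and Ugt8a were under 1 FPKM in all 4. Of 6 oligodendrocyte precursor genes, Pdgfra was in S5 at 8.1 FPKM and no other was found.

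Microglial markers stood out in S15. It had 5 of 12, namely Tyrobp at 117 FPKM, C1qc at 17.9, C1qa at 7.17, C1qb at 5.46 and Cx3cr1 at 5.07, with Csf1r at 0.0637 and Aif1 listed at 0. S5 had 2 (Tmem119 at 19 and Ctss at 13.9 FPKM), and S9 and S10 had none, with list means of 0.77, 0.00, 0.07 and 1.72 and a highest other value of 5.30 in S3, which had 8. The part of microglial RNA in the profile of S15 was not tested. Of 10 pericyte genes 3, 1, 2 and 2 were found, against 1 to 2 in the others. Acta2, the actin of smooth muscle that ependyma also expresses, had 1.26, 5.01, 4.28 and 975 FPKM, Vtn had 14.1 in S5, Tagln 10.0 in S5, and Pdgfrb did not pass 0.258. Of 10 fibroblast and meningeal genes 5, 1, 1 and 0 were found, against 0 to 1 in the others. Ogn had 64.9 FPKM and Col1a2 1.76 in S5, and Fbln1 had 322 in S9 and 111 in S10. The choroid plexus has a fibroblast stroma, and the part of such RNA in S5 was not tested.

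Neuronal and blood markers were low. Of 13 neuroblast genes Cd24a, which ependyma shares, was found in each of the 4 and Sp9 in S15 at 2.62 FPKM. Stmn2 was listed at 0 in all 4. Of 12 mature neuron genes Snap25 was at 1.67 to 3.05 FPKM in the 4, and Ppp1r1b, which encodes a phosphatase inhibitor, had 356 in S5 and 63.5 in S15. Hba-a1 and Hba-a2, which are near-identical copies, were in S10 at 5.39 and 6.34 FPKM. Of 18 genes of transit-amplifying cells and proliferation 6, 2, 1 and 1 were found, against 0 to 5 in the others. Pcna, a replication clamp, had 118, 251, 101 and 0.119 FPKM and Mcm6 10.6, 0.0485, 0 and 47.0, while Ccnb2 had 82.4 in S9, Ube2c 22.9 in S5 and Top2a was under 0.2 in all 4.

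Genes that respond to handling and stress differed within the 4. Of 13 immediate early genes 12, 11, 11 and 6 were found, and the list means were 4.24, 6.38, 6.13 and 1.64, against 1.07 to 8.68 in the others. Fos had 154 FPKM in S5, 936 in S9, 761 in S10 and 1.23 in S15, Atf3 9.02, 396, 1133 and 52.9, Btg2 95.9, 272, 1222 and 0.368, and Egr1 67.4, 617, 217 and 2.87. Within the 4, S9 and S10 were thus the highest and S15 the lowest. Among the 17 cells S9 ranked 6, S10 ranked 7, S5 ranked 11 and S15 ranked 16. Of 22 antioxidant and stress genes 19, 19, 18 and 17 were found, against 10 to 19 in the others. Hspa8 had 1052, 2109, 1612 and 3746 FPKM and Hsp90aa1 353, 3208, 1643 and 4483. Gpx4 had 1509, 4328, 2113 and 471 and Sod1 1844, 2002, 474 and 1086. Of 30 genes of the Notch, BMP, Wnt and Hedgehog pathways 17, 10, 11 and 6 were found, against 2 to 15 in the others. The list mean was 2.23 in S5 and 2.26 in S11, outside the 4. Ctnnb1 had 102, 315, 49.9 and 107 and Id1, a BMP target, 113, 630, 1079 and 0.32 FPKM. In S5, 7 of the 30 were at least 4-fold above S9, S10 and S15, where the share over all symbols was 17.6%. S5 alone of the 4 had Bmp4 at 24.7, Bmp7 at 14.6 and Smo, the Hedgehog signal transducer, at 30.2 FPKM, with at most 0.492 in the other 3.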

How the data were processed

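RNA-seq of 28 single cells and 4 pools of 10 cells from the mouse subventricular zone was used as 1 deposited table of FPKM per gene and library. The authors aligned reads with TopHat 1.41 and estimated FPKM with Cufflinks 2.02, with mm9 named as the build, per the submitters' processing notes. The loci in the table match GRCm38 instead: 96.2% of 39011 lines carry a GENCODE M21 gene ID, and 99.7% of those overlap that gene's GRCm38 locus. For strand, layout and annotation release, the sources used here give nothing. The deposited FPKM hold no counts, so depth was approximated from the smallest steps of FPKM in 1738 genes of 1 exon and at least 800 bases, taking fragments of 200 bases.

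Lines of 1 symbol were summed, and levels were compared as log2(FPKM + 1), which understates the change of low genes. A gene is found at FPKM of at least 1, and symbols found in no cell compared were left out. Starts were moved by 1 to count from 1. Cells were grouped by the rule gene, and no test was run, since cells are not replicates and were chosen on these values. The members, the markers and the 36 gene lists (614 of 618 entries present) were chosen with earlier results of these data known. Genes are named by rule: the 4 markers, the 4 highest of each list and any list gene above all other cells, the 20 protein-coding genes above all others with the widest gap, the 20 furthest above and below in S5, and the 10 furthest above in each of S9, S10 and S15; clone-named genes may be counted instead. Other named genes were chosen after their values were seen. A few genes that the rule names are not reported here. Alternatives were the scaling, filter, pseudocount, choice of members, comparison cells and leaving out each member. Scripts were tested on simulated data. Python 3.11.15, pandas 2.3.3, numpy 2.4.6, scipy 1.17.1 and matplotlib 3.10.9 were used.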

Additional observations from a re-analysis of the deposited data

Results flagged for a closer look

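In 40 groups of 4 values (the means of 36 lists and 4 markers in S5, S9, S10 and S15), 3 held a value far from the other 3. The cutoff used would flag about 1 in 20 groups by chance, so 3 of 40 is not far from that share. The 4 cells are not replicates, so the flags are a description. The mean log2(FPKM + 1) of microtubule inner proteins and tektins was 4.79 in S9 against 2.59 to 2.76 in the other 3. The mean of oligodendrocyte precursor genes was 0.569 in S5, where Pdgfra was the gene found. The mean of red blood cell genes was 0.793 in S10, where Hba-a1 and Hba-a2 were found.

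The pools of 10 cells, which enter no comparison, held the rule gene 1700009P17Rik at 26.1 FPKM in P1, 94.6 in P2, 189 in P3 and 357 in P4. Its highest value in the 13 other cells was 1.82 FPKM.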

How the results depend on the processing

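The count of 79 genes higher in all 4 cells than in the other 13 was 80 after scaling to the sum of protein-coding FPKM (74 shared), 76 after upper quartile scaling (67 shared), 75 with a filter of 10 FPKM and 58 against all 24 other single cells. Leaving out each of the 4 cells in turn gave 115 to 216, as fewer cells had to pass. With cells chosen instead by Foxj1 of at least 1 FPKM (S4, S9, S10 and S15), 22 genes were above all others. No overlap with the 79 was possible, since S4 and S5 change sides. The number of lists with a median difference of at least 1 was 13, and it was 20 with a pseudocount of 0.1, 8 with a pseudocount of 10 and 14 to 16 without each cell. S5 was at least 4-fold above for 650 genes and below for 92 with a pseudocount of 10, against 2359 and 224, and without each of the other cells for 2898 to 3294 and 410 to 746. Of 468 list medians over 13 settings, 398 stayed within the spread, 68 moved by more and 2 reversed. The choroid plexus median of 1.93 was -0.02 without S5 (-0.017 to 2.61 over leaving out each cell), and the oligodendrocyte median of -2.01 was 1.12 with the cells chosen by Foxj1, which include S4, the cell with the highest mean of that list. The median over all symbols shifted from 0.05 to 0.29 against 24 cells and to -0.17 without S5. No paired analysis was possible because the cells are of 1 group and no result comes from a test. The table holds no counts, so a gene listed at 0 cannot be told from a failed estimate.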

Other observations

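Of the 79 genes higher in the 4 cells than in the other 13, P1 had 66 at 1 FPKM or more, P2 had 64, P3 had 71 and P4 had 71. In cells S18 to S28 the number was 7 to 13. Over the highest value of the 13 cells were 51 of the genes in P1, 54 in P2, 60 in P3 and 66 in P4. The pools also had more genes found over all symbols (10478 in P3 to 12870 in P2) than any of the 4 cells. Cells S18 to S28 had fewer, 2107 (S20) to 5056 (S25). The same counts were not taken over all symbols, so these numbers are a description. Ttr, listed at 0 in S5, had 33894 FPKM in P1, 19.5 in P2, 25.1 in P3 and 19813 in P4. Kcnj13, the choroid channel of S5, had 739 FPKM in P1, 5.66 in P2, 56.0 in P3 and 325 in P4.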
